A study of Mus musculus with 18 samples.

Results

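The 10 genes described here encode the proteins that bring pyruvate into mitochondria and set how fast the pyruvate dehydrogenase complex (PDH) turns it into acetyl-CoA. They are Mpc1 and Mpc2, the 2 subunits of the mitochondrial pyruvate carrier, Pdha1 and Pdhb, the alpha and beta subunits of the E1 dehydrogenase, Dlat, the E2 acetyltransferase core, the PDH kinases Pdk1, Pdk2, Pdk3 and Pdk4, and Pdp1, a PDH phosphatase. They were taken by symbol from the deposited count table, which holds 48709 genes. All 10 passed the filter on low counts that left 13281 genes for testing.

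PDH links glycolysis to the citric acid cycle and its reaction cannot be reversed in mammalian cells. Kinases of the Pdk family phosphorylate the E1 alpha subunit and switch the complex off, while the phosphatases encoded by Pdp1 and Pdp2 remove those phosphates and switch it on. The heart burns mostly fatty acids and keeps much of its PDH phosphorylated. Pdk2 and Pdk4 are regarded as its main kinases, and Pdk4 transcription is known to follow fasting, fatty acids, glucocorticoids and FOXO and PPAR factors.

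The study sequenced polyadenylated left-ventricular RNA of male wild-type C57BL/6J mice in 18 libraries, with mice 12 weeks old at the start, in 3 groups of 6. The Isoproterenol and minocycline group received isoproterenol, a beta-adrenergic agonist that loads the heart, at 30 mg/kg per day from an osmotic pump and minocycline, a tetracycline antibiotic, at 50 mg/kg by daily intraperitoneal injection. The Isoproterenol group received the same pump dose with saline injections, and the Control group received saline by both routes. Hearts were taken after 21 days. All mice carried a pump and were injected daily, and no group with minocycline alone was among the samples used. Each library has its own number in the labels, but the protocol speaks of pooled RNA, so what the p-values weigh is library-to-library spread, which may be technical.

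Libraries held 14203041 to 22688664 counts, and no pair within a group held the same values. Levels are given as CPM, counts scaled by library size with a TMM factor that offsets differences in composition. All 8 cardiomyocyte markers were detected in every group, and lymphocyte markers summed to at most 1.71 CPM. The cardiomyocyte sum was 52599 to 63606 CPM (median 57988) in the Isoproterenol and minocycline libraries, 53305 to 58224 CPM (median 54564) in the Isoproterenol libraries and 63359 to 70779 CPM (median 66683) in the Control libraries. Macrophage markers summed to 242 to 397 CPM with both drugs, 248 to 346 CPM with isoproterenol and 174 to 218 CPM in Control. Fibroblast markers summed to 781 to 1294 CPM with both drugs, 822 to 1146 CPM with isoproterenol and 633 to 882 CPM in Control. The cardiomyocyte marker sum was thus lower and the macrophage marker sum higher in every Isoproterenol library than in any Control library. The single markers did not all follow: with isoproterenol 7 of 8 cardiomyocyte markers were lower, and 3 passed the test described below. Myh6, with the highest counts, averaged 23341 CPM with isoproterenol and 29933 CPM in Control, while Ryr2 averaged 1057 and 914 CPM. In whole tissue, fewer cells of a type and less RNA per cell cannot be told apart. Isoproterenol and minocycline 4 and 6 stood apart, with endothelial marker sums of 1556 and 1369 CPM against at most 1326 CPM in the other 16 libraries.

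The first question was which steps of pyruvate entry and PDH control differed after isoproterenol, and whether minocycline changed that picture. A gene was called where edgeR's quasi-likelihood test gave a Benjamini-Hochberg adjusted p under 0.05 over all 13281 genes tested. With isoproterenol, 2 of the 10 genes were called, Pdk2 and Pdha1, both lower than in Control, beside 12.6% of all genes called in either direction, 5.62% lower and 6.94% higher. An unadjusted p under 0.05 was found for 5 of 10, beside 27.6% of all genes. With both drugs, 5 of 10 were called, beside 19.3% of all genes: Pdk2, Pdha1, Pdhb and Dlat were lower than in Control (9.05% of all genes called lower) and Pdk3 was higher (10.2% called higher). Here 7 of 10 had an unadjusted p under 0.05, beside 33.5% of all genes. Adding minocycline to isoproterenol gave a call for 0 of 10, beside 0.0527% of all genes. The comparisons with Control share the 6 Control libraries, so their values are given side by side and are not independent of each other.

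**Figure D1:**
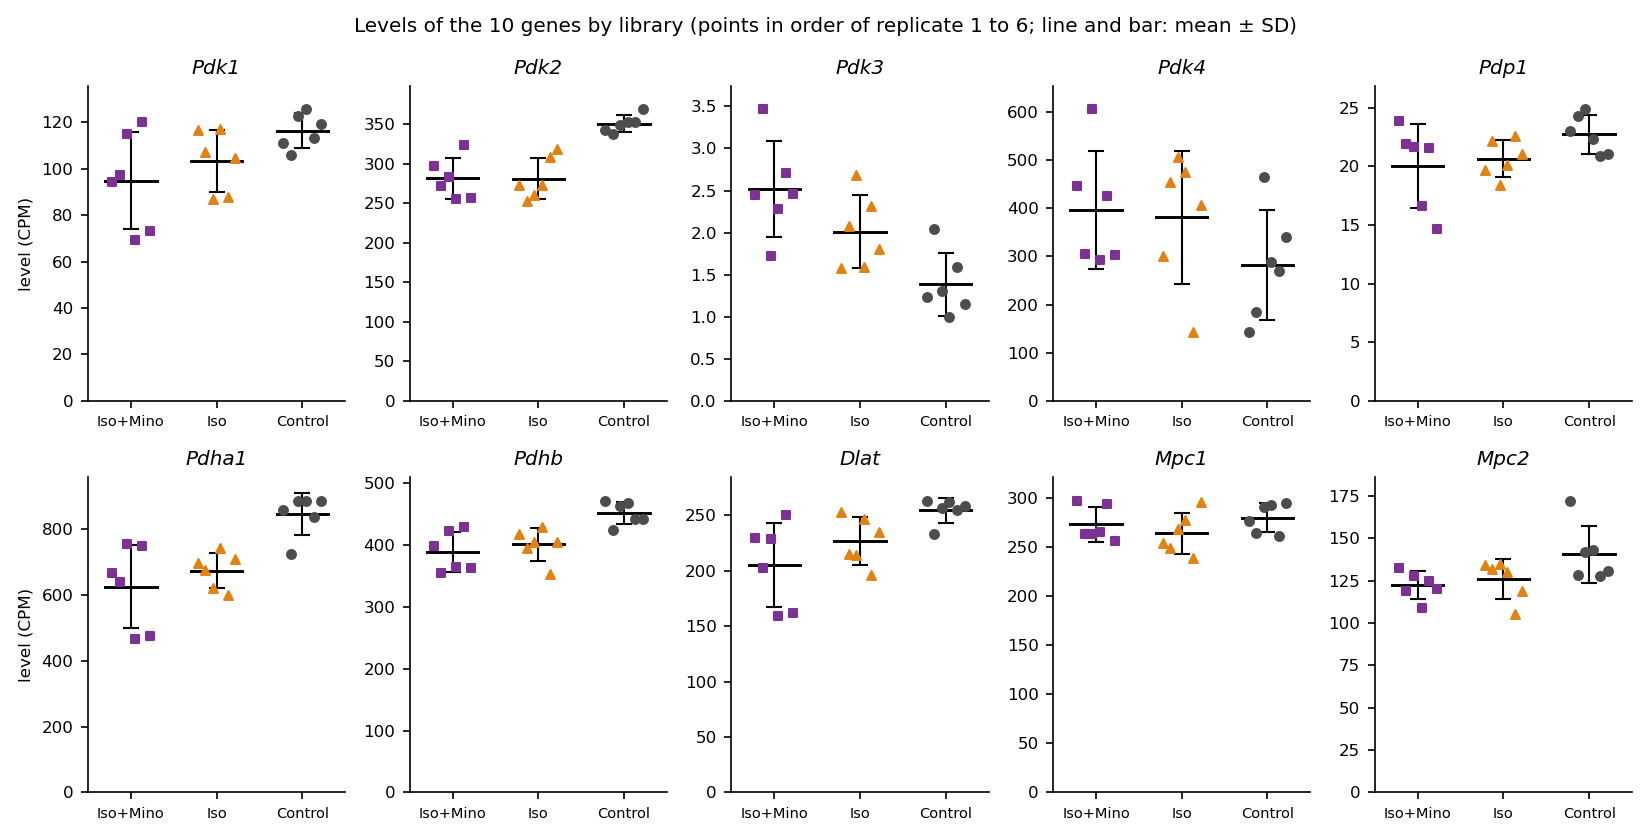
Level in CPM (vertical axis, from 0) of each of the 10 genes in the 18 libraries, with Isoproterenol and minocycline, Isoproterenol and Control from left to right; points are libraries, lines and bars the mean ± SD. Every Control library has more Pdk2 than any infused library, while Pdk4 spreads over 142 to 605 CPM and its groups overlap.

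Pdk2, which encodes the most widely expressed PDH kinase, gave the clearest separation. It had 256 CPM at the lowest, 278 CPM at the median and 324 CPM at the highest among the Isoproterenol and minocycline libraries, 253, 273 and 319 CPM among the Isoproterenol libraries, and 338, 351 and 369 CPM among the Control libraries. In CPM both infused groups lay wholly below Control and covered nearly the same range. Such a gap, in either direction, was seen in 6.9% of genes for isoproterenol and 7.14% for both drugs. In TPM, a length-scaled measure deposited by the authors and not tested here, the groups overlapped. Isoproterenol 5 had 178 TPM and Isoproterenol and minocycline 5 had 165 TPM, while the Control libraries ran from 153 to 178 TPM. Pdk2 fell by 0.32 ± 0.07 (SE) with isoproterenol, which is 19.8% (95% interval 11.9 to 27.1% lower; edgeR adjusted p = 0.00275), and also by 0.32 ± 0.07 with both drugs (adjusted p = 0.00203). Between the infused groups the difference was 0.0026, with an interval of -0.13 to 0.14.

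These Pdk2 calls held in each of 18 fits without 1 library, with adjusted p from 0.00128 to 0.00898 for isoproterenol and from 0.000469 to 0.00641 for both drugs. They did not hold when the mean log2-CPM of the cardiomyocyte markers entered the fit as a covariate: the value was then -0.19 (adjusted p = 0.165) for isoproterenol and -0.21 (adjusted p = 0.124) for both drugs.

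Pdk4, the kinase raised by fasting and fatty acids in many tissues, varied most. The Isoproterenol and minocycline libraries had 293 CPM at the lowest, 365 CPM at the median and 605 CPM at the highest. The Isoproterenol libraries had 142, 430 and 507 CPM, and the Control libraries 143, 279 and 464 CPM. The 3 groups overlapped over most of their range, and the lowest value of all came from an infused library, Isoproterenol 5. The coefficient of variation was 30.9% with both drugs, 36.1% with isoproterenol and 40.6% in Control. For Pdk2 it was 9.32%, 9.35% and 3.02% in those groups. Pdk4 passed the test in no comparison: its log2 difference was 0.44 (interval -0.23 to 1.10; edgeR adjusted p = 0.399) with isoproterenol, 0.49 (interval -0.18 to 1.16; adjusted p = 0.296) with both drugs and 0.06 (interval -0.61 to 0.72; adjusted p = 0.973) for added minocycline. With the cardiomyocyte marker mean as a covariate, a fit chosen after seeing the data, the value was 1.17 (adjusted p = 0.0910) with isoproterenol and 1.14 (adjusted p = 0.0922) with both drugs. With the fibroblast marker mean it was 0.87 (adjusted p = 0.239) with isoproterenol and 1.01 (adjusted p = 0.242) with both drugs.

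Pdk3, a kinase that pyruvate inhibits little, was the scarcest member and the only one called higher, which it was with both drugs. It had 1.72, 2.46 and 3.46 CPM (lowest, median, highest) in the Isoproterenol and minocycline libraries, 1.58, 1.94 and 2.69 CPM in the Isoproterenol libraries and 0.997, 1.27 and 2.04 CPM in the Control libraries. With both drugs, 5 of 6 libraries lay above every Control library. Pdk3 rose by 0.85 ± 0.20 on the log2 scale with both drugs (edgeR adjusted p = 0.00486) and its difference with isoproterenol was 0.53 ± 0.20, which did not pass (adjusted p = 0.0875). Against the Isoproterenol group the difference with added minocycline was 0.32 (interval -0.08 to 0.72). Of 18 fits without 1 library, isoproterenol passed in 1, that without Control 2, the Control library with the most Pdk3 (0.68, edgeR adjusted p = 0.0337). The call with both drugs held in all 18 of these fits and in 28 of 31 alternatives. It was lost with the cardiomyocyte or the fibroblast covariate and without the libraries above 80 CPM of the atrial gene Myl7. Fibroblast marker sums moved with Pdk3, being 38.5% higher on average with both drugs than in Control, and with the fibroblast marker mean as a covariate the value was 0.33 (adjusted p = 0.571). Their part in the result was not tested.

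Pdk1, a kinase that also phosphorylates a site on E1 alpha that the other kinases do not, did not pass the test. Its levels were 69.4, 95.7 and 120 CPM in the Isoproterenol and minocycline libraries, 87.2, 106 and 117 CPM in the Isoproterenol libraries and 106, 116 and 126 CPM in the Control libraries. The groups overlapped, and the differences were -0.17 (interval -0.41 to 0.07) with isoproterenol and -0.29 (interval -0.54 to -0.05; edgeR adjusted p = 0.0813) with both drugs. The 2 lowest values, 69.4 and 73.3 CPM, came from Isoproterenol and minocycline 4 and 6.

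Division by exon length allows genes to be compared. In the Control libraries Pdk2 had 111 ± 3 CPM per kilobase (SD, n = 6), Pdk4 80.2 ± 32.5, Pdk1 15.0 ± 0.96 and Pdk3 0.542 ± 0.146. Pdk2 and Pdk4 overlapped, while Pdk1 and Pdk3 lay below both in every Control library. Pdk4 made up 51.6 ± 5.8% of the summed kinase level with both drugs, 49.6 ± 12.4% with isoproterenol and 37.5 ± 9.2% in Control. Pdk2 took 42.2 ± 5.4% of it with both drugs, 43.6 ± 11.5% with isoproterenol and 54.8 ± 8.2% in Control. The sum itself was 215 ± 42 CPM per kilobase with both drugs, 211 ± 36 with isoproterenol and 207 ± 35 in Control. In deposited TPM the sum was 334 ± 58 with both drugs, 342 ± 38 with isoproterenol and 297 ± 51 in Control, so it depended on the scaling. The ratio of Pdk4 to Pdk2 averaged 1.26 (1.01 to 1.92) with both drugs, 1.25 (0.415 to 1.75) with isoproterenol and 0.720 (0.376 to 1.20) in Control, so its ranges overlapped. These shares were not tested. With the longest transcript in place of all exons the Pdk4 share became 43.2% with both drugs, 41.6% with isoproterenol and 30.1% in Control, and the Pdk2 share 49.2% with both drugs, 50.1% with isoproterenol and 60.9% in Control. The mean ratio of Pdk4 to Pdk2 was then 0.901 with both drugs, 0.893 with isoproterenol and 0.515 in Control, so which of them had the higher mean in the infused groups depended on the length used.

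**Figure D2:**
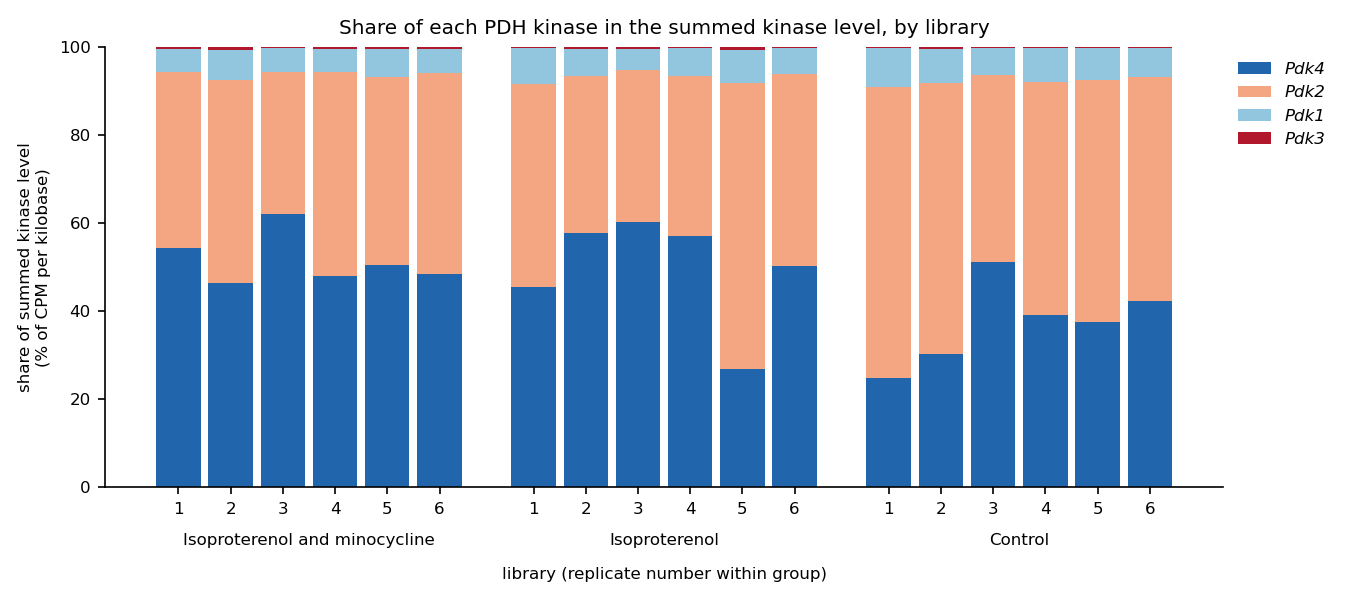
Share of Pdk4, Pdk2, Pdk1 and Pdk3 in the summed kinase level (vertical axis, % of CPM per kilobase) in each of the 18 libraries, grouped as Isoproterenol and minocycline, Isoproterenol and Control; bars stack to 100%. Pdk4 and Pdk2 fill most of every bar, and the Pdk4 share runs from 24.9% in a Control library to 62.1% in an Isoproterenol and minocycline library.

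Promoter windows of 250 bases before the start site were taken from RefSeq (GRCm38.p6) for the 9 members with an entry, that is, for all but Pdp1. Pdk1, Pdk2 and Mpc1 had 2 windows each, and that nearest the start of the deposited gene was used. The start sites of Mpc1 and Mpc2 lay 883 and 623 bases from that start, so their windows fell wholly inside the deposited gene. The windows of Pdk2 and Pdk4 are shown because these kinases held the largest shares of the summed level and Pdk2 passed the test while Pdk4 did not, and that of Pdha1 because it holds the subunit they act on. Capitals mark every match, on either strand, to the motifs named next. Pdk2 lies on the minus strand at chr11:95041372-95041621. Pdk4 lies on the minus strand at chr6:5496310-5496528, where only the bases before the deposited gene are printed. Pdha1 lies on the minus strand at chrX:160138431-160138680.
Pdk2: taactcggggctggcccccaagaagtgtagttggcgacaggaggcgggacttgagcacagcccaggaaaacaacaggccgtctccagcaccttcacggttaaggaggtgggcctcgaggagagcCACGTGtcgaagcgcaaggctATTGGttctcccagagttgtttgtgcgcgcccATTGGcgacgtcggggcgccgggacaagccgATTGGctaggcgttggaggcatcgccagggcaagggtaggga
Pdk4: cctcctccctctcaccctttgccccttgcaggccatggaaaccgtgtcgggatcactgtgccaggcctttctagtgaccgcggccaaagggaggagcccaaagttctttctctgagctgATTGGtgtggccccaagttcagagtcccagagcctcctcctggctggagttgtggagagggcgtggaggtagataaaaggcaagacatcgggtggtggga
Pdha1: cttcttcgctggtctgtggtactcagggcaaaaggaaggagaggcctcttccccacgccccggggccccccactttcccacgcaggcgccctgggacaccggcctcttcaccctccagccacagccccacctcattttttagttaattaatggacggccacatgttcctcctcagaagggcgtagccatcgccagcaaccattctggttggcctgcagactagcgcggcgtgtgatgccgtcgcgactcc

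The motifs searched on both strands were the CCAAT box (CCAAT), the GC box (GGGCGG), the TATA box (TATAAA), the E box (CACGTG), the hypoxia response core (ACGTG, which lies inside the E box), the core of the cAMP response element (TGACG), a FOXO site (GTAAACA) and an estrogen-related receptor half-site (AAGGTCA). Pdk2 held 3 CCAAT boxes and 1 E box, Pdk4 held 1 CCAAT box, and Pdha1 held none of the 8. Pdk3 held a CCAAT box, a GC box and a hypoxia response core. The CCAAT box and the GC box each occurred in 6 of 9 members, beside 33.8% and 32.7% of all 32851 windows. Both counts include Mpc1 and Mpc2. The hypoxia response core occurred in 3 of 9 (16.6% of all windows) and the cAMP core in 2 of 9, Pdhb and Dlat (17.8%). Neither the FOXO site (3.17% of all windows), the receptor half-site (4.08%) nor the TATA box (12.4%) was found in these windows. Pdk4 had 6 CpG pairs in its window, the median of all windows, whereas the other 8 had 15 to 32. A match is a description of letters and not a site of action.

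Pdp1, the calcium-stimulated PDH phosphatase of muscle, had 14.6, 21.6 and 23.8 CPM in the Isoproterenol and minocycline libraries, 18.4, 20.6 and 22.5 CPM in the Isoproterenol libraries and 20.8, 22.7 and 24.9 CPM in the Control libraries. The groups overlapped, and the log2 differences were -0.14 (interval -0.34 to 0.06) with isoproterenol and -0.18 (interval -0.38 to 0.02) with both drugs. Per kilobase, the 4 kinases together exceeded Pdp1 and Pdp2 together by 33.4 ± 4.6 times with both drugs, 30.6 ± 6.2 times with isoproterenol and 24.2 ± 5.1 times in Control. The ranges of that ratio overlapped.

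Pdha1, the subunit that the kinases phosphorylate, was lower in both infused groups. It had 468, 654 and 755 CPM in the Isoproterenol and minocycline libraries, 601, 687 and 743 CPM in the Isoproterenol libraries and 724, 873 and 887 CPM in the Control libraries. In CPM the groups met only through Control 2, which at 724 CPM lay below the other 5 Control libraries (838 to 887 CPM). Deposited TPM averaged 262 with both drugs, 295 with isoproterenol and 326 in Control. On that scale Isoproterenol 1 (322 TPM) also lay above Control 5 (317 TPM). Pdha1 fell by 0.33 ± 0.10 with isoproterenol (20.3%, interval 7.32 to 31.4% lower; edgeR adjusted p = 0.0444) and by 0.44 ± 0.10 with both drugs (26.0%; adjusted p = 0.00635).

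The isoproterenol call for Pdha1 sat close to the threshold. It was lost without any 1 of 11 of the 18 libraries, namely Control 1, 3, 4, 5 or 6, Isoproterenol 1, 2, 3, 5 or 6 or Isoproterenol and minocycline 1, with adjusted p between 0.0184 and 0.0924 over all 18 fits. The value stayed between -0.37 and -0.29 throughout. With the cardiomyocyte marker mean as a covariate it was 0.09 (adjusted p = 0.522) with isoproterenol and -0.08 (adjusted p = 0.607) with both drugs.

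Pdhb, the partner of Pdha1 in the E1 tetramer, had smaller differences. It had 355, 381 and 429 CPM in the Isoproterenol and minocycline libraries, 353, 405 and 429 CPM in the Isoproterenol libraries and 425, 453 and 472 CPM in the Control libraries. In each infused group 5 of 6 libraries lay below every Control library in CPM. Deposited TPM of Pdhb averaged 408 with both drugs, 440 with isoproterenol and 437 in Control. Pdhb fell by 0.22 ± 0.06 with both drugs (edgeR adjusted p = 0.0135) and its difference with isoproterenol was -0.17 ± 0.06, short of the threshold (adjusted p = 0.0587, and 0.0205 with DESeq2). The ratio of Pdha1 to Pdhb per kilobase was 0.637 ± 0.095 with both drugs, 0.669 ± 0.031 with isoproterenol and 0.745 ± 0.040 in Control, a ratio that rests on the exon lengths behind the deposited TPM values.

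Dlat, the E2 core on which the complex is built, had 159, 216 and 250 CPM in the Isoproterenol and minocycline libraries, 196, 225 and 253 CPM in the Isoproterenol libraries and 233, 257 and 263 CPM in the Control libraries. With both drugs, 5 of 6 libraries lay below every Control library in CPM. Deposited TPM of Dlat averaged 65.6 with both drugs, 75.7 with isoproterenol and 74.8 in Control. Dlat fell by 0.31 ± 0.10 with both drugs (edgeR adjusted p = 0.0279), and the difference with isoproterenol was -0.17 (interval -0.37 to 0.03; adjusted p = 0.268). The Dlat call was lost without Control 4, Control 6, Isoproterenol and minocycline 4 or Isoproterenol and minocycline 6, with adjusted p up to 0.0662. Those last 2 libraries held the lowest Dlat levels, 159 and 161 CPM, as well as the lowest Pdha1 levels, 468 and 477 CPM. Without both of them 3 members were still called against Control, Pdk2 (-0.25), Pdk3 (0.89) and Pdha1 (-0.27), while Dlat (-0.16, adjusted p = 0.160) and Pdhb (-0.17, adjusted p = 0.0797) were not.

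In the edgeR test neither subunit of the pyruvate carrier passed, while DESeq2 called Mpc2 lower with both drugs (adjusted p = 0.0463). Mpc1 had 256, 264 and 297 CPM in the Isoproterenol and minocycline libraries, 238, 261 and 296 CPM in the Isoproterenol libraries and 261, 283 and 295 CPM in the Control libraries. The groups overlapped almost fully, and the differences were -0.09 (interval -0.21 to 0.04) with isoproterenol, -0.04 (interval -0.16 to 0.09) with both drugs and 0.05 (interval -0.07 to 0.17) for added minocycline. Mpc2 had 109, 123 and 132 CPM in the Isoproterenol and minocycline libraries, 105, 131 and 134 CPM in the Isoproterenol libraries and 128, 136 and 172 CPM in the Control libraries. Its differences from Control were -0.16 (interval -0.32 to -0.00019) with isoproterenol and -0.20 (interval -0.36 to -0.04; edgeR adjusted p = 0.0664) with both drugs. The both-drugs value passed in edgeR without Control 2 (adjusted p = 0.04996) or without Isoproterenol 5 (adjusted p = 0.0482).

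**Figure D3:**
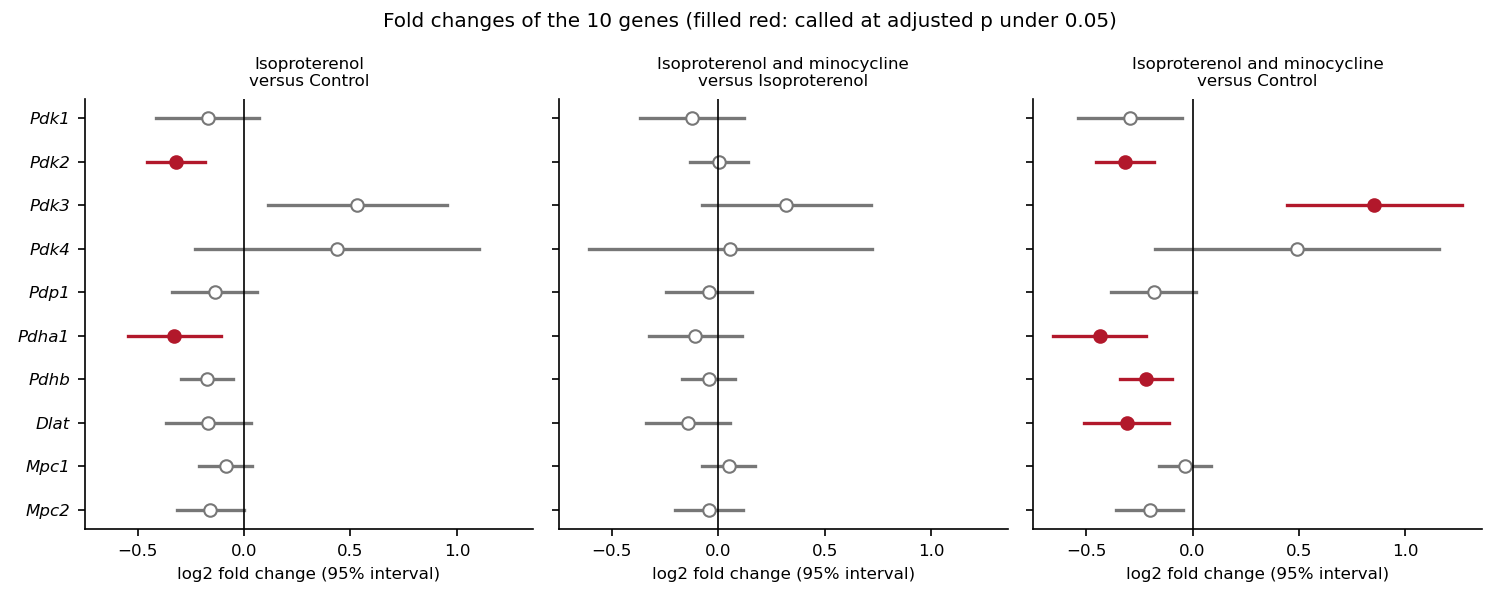
Log2 fold change (horizontal axis) of each member with its 95% interval in the 3 comparisons, isoproterenol against Control, added minocycline against isoproterenol, and both drugs against Control; filled red points passed the test. Pdk2 and Pdha1 are filled on the left, none in the middle, and Pdk2, Pdk3, Pdha1, Pdhb and Dlat on the right.

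For added minocycline, edgeR called 0 of the 10 genes and gave 0 of them an unadjusted p under 0.05, beside 7.6% of all genes. DESeq2 and limma voom also called 0 of them. The point values lay between -0.14 for Dlat and 0.32 for Pdk3. For Pdk2, Pdhb, Mpc1 and Mpc2 the intervals lay between -0.20 and 0.17 on the log2 scale, while that of Pdk4 ran from -0.61 to 0.72.

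Over the 10 members the median log2 difference was -0.16 with isoproterenol and -0.21 with both drugs, beside 0.0011 and 0.0035 over all genes tested, and 8 of 10 members were lower than Control in each comparison. For added minocycline it was -0.04, beside -0.0026. The mean cardiomyocyte marker sum differed by -0.28 on the same scale with isoproterenol and by -0.21 with both drugs. With the cardiomyocyte marker mean as a covariate in edgeR, 0 of 10 members were called for isoproterenol (4 at an unadjusted p under 0.05). With that covariate 0 were called for both drugs (3 unadjusted) and 0 for added minocycline (3 unadjusted). With the fibroblast marker mean these counts were 0 (2 unadjusted) for isoproterenol, 0 (2 unadjusted) for both drugs and 0 (0 unadjusted) for added minocycline. Marker levels and treatment moved together in these libraries and cannot be told apart by such a fit.

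**Figure D4:**
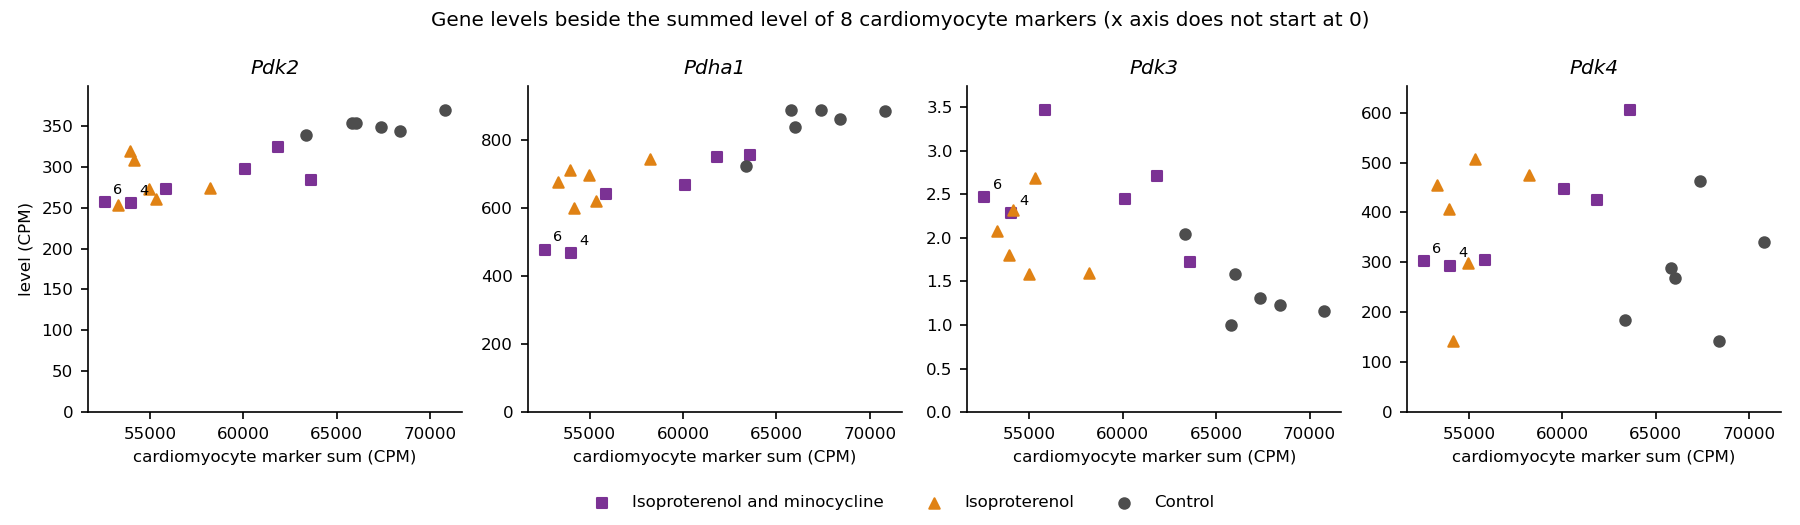
Level of Pdk2, Pdha1, Pdk3 and Pdk4 in CPM (vertical axes, from 0) against the summed level of 8 cardiomyocyte markers (horizontal axis, CPM, not from 0) in the 18 libraries; the numbers mark Isoproterenol and minocycline 4 and 6. The Isoproterenol libraries lie at 53305 to 58224 CPM of markers and the Control libraries at 63359 to 70779 CPM, with Pdk2 and Pdha1 high and Pdk3 low in the Control libraries.

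Ordered by level per kilobase in Control, the members ran from Pdhb (304 ± 12) and Pdha1 (227 ± 17) through Mpc1 (134 ± 7), Pdk2 (111), Pdk4 (80.2), Dlat (52.1 ± 2.3), Mpc2 (36.9 ± 4.4) and Pdk1 (15.0) to Pdp1 (5.04 ± 0.37) and Pdk3 (0.542). Neighbours in this order kept apart in all 6 Control libraries except Pdk2 and Pdk4, and Pdk4 and Dlat, each of which changed order in 1 library. Lengths came from the deposited TPM values. With the exon lengths of GENCODE M21, which differ for Pdhb and Mpc2, the ratio of Pdha1 to Pdhb in Control became 1.94 in place of 0.745.

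Within groups Pdk1, Pdha1 and Dlat varied together from library to library. After removal of the group means, log2-CPM of Pdha1 and Dlat had Pearson's r = 0.95 (Spearman's rho = 0.90, 18 libraries), Pdk1 and Pdha1 r = 0.95 (rho = 0.85) and Pdk1 and Dlat r = 0.92 (rho = 0.77). Without the 2 libraries farthest from the median of the first gene r was 0.89, 0.90 and 0.85. Of the 45 pairs, 35 were positive and the median r was 0.45. Pdk3 ran against most of the others, down to r = -0.57 with Pdhb. Pdk2 and Pdk4 showed r = -0.01 over the 18 libraries, but the groups differed in sign. Their r was 0.61 with both drugs, -0.55 with isoproterenol and 0.57 in Control. These are descriptions with no test: the points share library depth and the mix of cells in each piece of tissue.

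**Figure D5:**
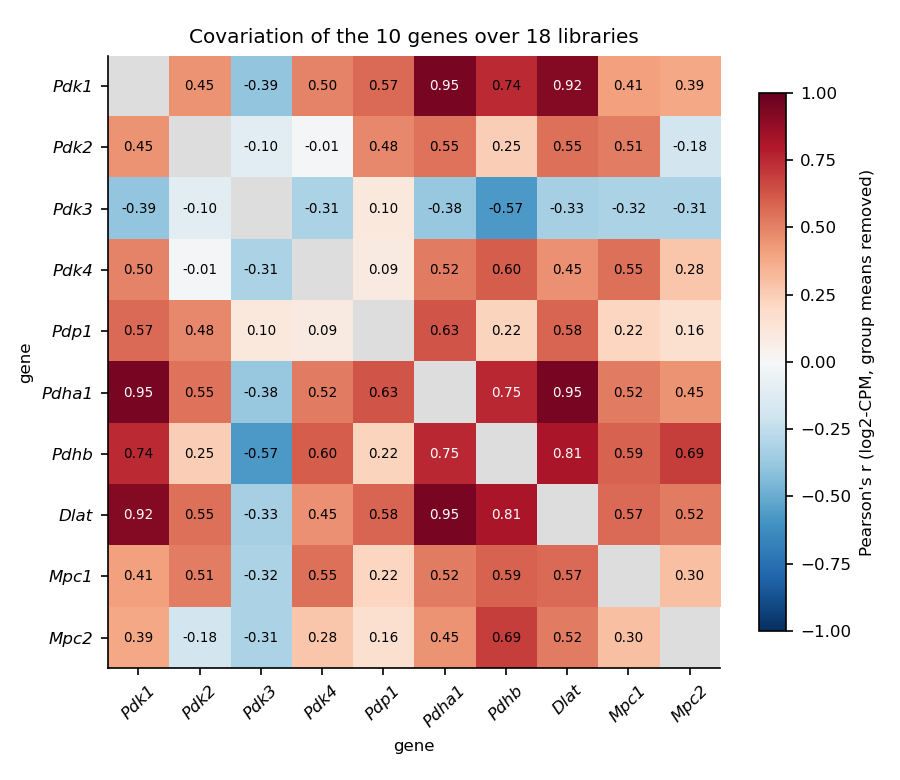
Pearson's r of log2-CPM between each pair of the 10 genes over 18 libraries after removal of the group means (colour scale from -1 to 1). Pdk1, Pdha1 and Dlat form the block with the highest values, 0.92 to 0.95, and the Pdk3 row is mostly negative.

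The genes most like each member over the 18 libraries were sought among 7190 genes of at least 10 CPM. For Pdk2 they were Sgca, a sarcoglycan of the muscle cell membrane (r = 0.95), Bckdha, a subunit of the branched-chain ketoacid dehydrogenase (r = 0.93), and Ipo13 (r = 0.93). For Pdha1 they included Mut, a mitochondrial mutase (r = 0.98), and Acsl1, which activates long-chain fatty acids (r = 0.98). Pdhb was nearest to Ptcd3, Sucla2 and Cbr4 (r = 0.95, 0.94 and 0.94) and Dlat to Suclg2, Opa1 and Oxct1 (r = 0.97 each). Pdk3 was nearest to Aebp1 (r = 0.88), Rarres2 and Sulf1 (0.87 each). Pdk4 had no neighbour above r = 0.79, the value of Gtf3c6, followed by Zfp422 (0.76) and Tiparp (0.74). Nearness of this kind includes the difference between groups.

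The rest of the complex was read from a list of other PDH genes. It holds Pdhx, which tethers E3, Dld, the E3 dehydrogenase, Pdp2, the other phosphatase, and Pdpr, the regulatory subunit of the phosphatase. With both drugs 2 of these 4 were called lower, beside 9.05% of all genes. With isoproterenol edgeR called 0 (1 at an unadjusted p under 0.05, and 1 called by DESeq2 and by limma voom), and for added minocycline 0 (1 unadjusted, 0 by the other tools). Pdp2 had 11.8 ± 3.5 CPM with both drugs, 13.5 ± 3.1 with isoproterenol and 20.7 ± 5.3 in Control. It fell by 0.81 with both drugs (edgeR adjusted p = 0.00923), and its difference with isoproterenol was -0.62 (adjusted p = 0.0519). Pdhx fell by 0.28 with both drugs (adjusted p = 0.0407). Pdpr varied widely, with 20.9 ± 11.7 CPM with both drugs, 27.3 ± 10.4 with isoproterenol and 34.6 ± 6.4 in Control, and was lowest in Isoproterenol and minocycline 4 and 6 (6.96 and 8.62 CPM). Dld passed in no comparison.

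Among 13 tested genes for lipoate, thiamine and iron-sulfur supply, which PDH needs for its cofactors, 1 rose and 1 fell with isoproterenol. With both drugs 1 rose and 2 fell. Over all genes 6.94% rose and 5.62% fell with isoproterenol, and 10.2% rose and 9.05% fell with both drugs. Lias, the lipoate synthase, rose by 0.37 in each (edgeR adjusted p = 0.00606 with isoproterenol and 0.00401 with both drugs), while Isca2, an iron-sulfur assembly factor, fell by 0.31 with isoproterenol and by 0.30 with both drugs. Iba57 of the same assembly step fell by 0.56 with both drugs. Of 8 genes of the sister ketoacid dehydrogenases, 4 fell in each comparison with Control and none rose, beside 5.62% of all genes called lower with isoproterenol and 9.05% with both drugs. With the cardiomyocyte covariate 0 of these 8 were called lower and 1 higher with isoproterenol (3 at an unadjusted p under 0.05), and 1 lower with both drugs. With the fibroblast covariate 0 were called in either comparison (2 unadjusted in each). Bckdha differed by -0.35 with isoproterenol and -0.44 with both drugs, and Dbt, the E2 of the branched-chain complex, by -0.68 with isoproterenol and -0.86 with both drugs. Dlst, the E2 of the 2-oxoglutarate complex, differed by -0.31 with isoproterenol and -0.39 with both drugs, and Dhtkd1 by -0.70 with isoproterenol and -0.76 with both drugs.

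Of 14 genes for lactate and the other fates of pyruvate, 3 rose and 3 fell with isoproterenol. Beside them, 6.94% of all genes rose and 5.62% fell. With both drugs 3 rose and 5 fell, beside 10.2% and 9.05% of all genes. With the cardiomyocyte covariate 4 were called higher and 0 lower with isoproterenol, and 4 higher and 1 lower with both drugs. Ldha, the lactate dehydrogenase subunit of glycolytic tissues, averaged 589 CPM with both drugs, 556 CPM with isoproterenol and 424 CPM in Control. It rose by 0.39 with isoproterenol (edgeR adjusted p = 4.88e-05) and by 0.47 with both drugs (adjusted p = 3.79e-06). Ldhb, the heart subunit, fell by 0.25 with isoproterenol and by 0.22 with both drugs. The lactate exporter Slc16a3 rose by 0.81 with isoproterenol and by 1.09 with both drugs. It was scarce, at 2.88 CPM with both drugs, 2.38 CPM with isoproterenol and 1.37 CPM in Control. The related carrier Slc16a1 averaged 142 CPM with both drugs, 135 CPM with isoproterenol and 145 CPM in Control. Bsg, which brings such carriers to the membrane, fell by 0.19 with isoproterenol and by 0.29 with both drugs.

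Of 19 genes of glucose uptake and glycolysis, 1 rose and 1 fell with isoproterenol, beside 6.94% and 5.62% of all genes. With both drugs 3 rose and 3 fell, beside 10.2% and 9.05% of all genes. Hk1, a hexokinase, rose by 0.27 with isoproterenol and by 0.43 with both drugs, and Pgam2, the muscle phosphoglycerate mutase, fell by 0.23 with isoproterenol. With both drugs Pfkfb2, which makes the activator of phosphofructokinase in heart, fell by 0.68, while the glycolytic enzymes Eno1 and Aldoa rose by 0.23 and 0.21. DESeq2 and limma voom each called 1 higher and 3 lower with isoproterenol. With the cardiomyocyte covariate 2 were called higher with isoproterenol and 4 with both drugs, and 0 lower in either. The fibroblast covariate gave 1 higher with isoproterenol, 2 higher with both drugs and 0 lower in either. The medians of this list were -0.0046 with isoproterenol and 0.02 with both drugs, beside 0.0011 and 0.0035 over all genes.

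Pdk4 is known as a PPAR target, and a list of other PPAR targets of heart was read beside it. Of 19 tested, 12 fell and 1 rose with isoproterenol, and 14 fell and 1 rose with both drugs. Over all genes 5.62% fell and 6.94% rose with isoproterenol, and 9.05% fell and 10.2% rose with both drugs. The list medians were -0.34 and -0.41, while Pdk4 had the values 0.44 and 0.49 and passed in neither comparison. Values above 0, called or not, were found for 3 of the 19 with isoproterenol and 4 with both drugs. Among these was Ucp3, not called, with means of 45.7 CPM with both drugs, 41.7 CPM with isoproterenol and 32.4 CPM in Control. Fabp3, which carries fatty acids in the cytosol, fell by 0.40 with isoproterenol and by 0.52 with both drugs. Acot1, an acyl-CoA thioesterase, fell by 1.42 with isoproterenol and by 1.13 with both drugs. Hadhb, of the trifunctional protein of fatty acid oxidation, fell by 0.59 with isoproterenol and by 0.76 with both drugs. Plin2, which coats lipid droplets, was the 1 gene called higher, by 0.18 with isoproterenol and by 0.22 with both drugs. Cardiomyocyte marker sums were lower in the Isoproterenol libraries than in any Control library. With those markers as a covariate 3 of the 19 were called lower and 0 higher with isoproterenol, and 9 lower and 0 higher with both drugs. With the fibroblast covariate 4 were called lower and 0 higher in each comparison.

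Of 15 regulators of PDH kinase transcription, edgeR called 0 for isoproterenol, beside 12.6% of all genes. An unadjusted p under 0.05 was found for 2, beside 27.6% of all genes, and 1 was called by DESeq2 and by limma voom. Foxo3 (-0.43, edgeR adjusted p = 0.0811) and Hif1a (-0.25, adjusted p = 0.117) had the smallest p-values. With both drugs Foxo3, a FOXO factor, fell by 0.49 (edgeR adjusted p = 0.0362). It was the 1 regulator that edgeR called, beside 19.3% of all genes. DESeq2 called 1 lower, and limma voom called 1 higher and 1 lower. For both drugs, with the cardiomyocyte or the fibroblast covariate, 0 regulators were called lower and 1 higher. For isoproterenol 0 were called lower, while 2 were called higher with the cardiomyocyte covariate and 1 with the fibroblast covariate. Of 12 HIF target genes, 3 rose with isoproterenol (6.94% of all genes) and 5 with both drugs (10.2% of all genes), and none fell. They were led by Ldha, Bnip3, a mitophagy receptor (0.45 with isoproterenol and with both drugs), and Egln3, a HIF prolyl hydroxylase (1.12 with isoproterenol and 0.76 with both drugs). Of 12 genes of mitochondrial content, 2 fell with isoproterenol (5.62% of all genes) and 3 with both drugs (9.05% of all genes). Among them were Hspd1, a mitochondrial chaperone (-0.48 with isoproterenol and -0.63 with both drugs), and Cs, citrate synthase (-0.40 with isoproterenol and -0.48 with both drugs). With the cardiomyocyte covariate 0 of these 12 were called lower and 1 higher with isoproterenol, and 1 lower with both drugs. For added minocycline edgeR, DESeq2 and limma voom called 0 genes in each of these 9 lists, and edgeR gave 0 to 4 genes of a list an unadjusted p under 0.05. With the cardiomyocyte covariate, however, 1 of the 4 other PDH genes and 2 of the 19 PPAR targets were called lower for added minocycline. With the fibroblast covariate 0 genes of these lists were called.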

How the data were processed

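Counts per gene and library were used as deposited by the authors, with the column header calling them total counts. Per the labels' protocols, trimming used CLC Genomics Workbench 21.0.3, a quality limit of 0.05 and at most 2 ambiguous bases, on paired reads of 150 bases from a NovaSeq 6000. For edgeR, listed in the submitters' processing notes, no role is stated. Build, annotation, mapping and strand settings: not given in the sources used here. TPM values, also deposited by the authors, served to recover the exon length behind each gene, since TPM divided by CPM is inverse to that length, and levels between genes are CPM per kilobase of it. The authors' comparison columns were not used, and 0 per-sample columns were unmatched.

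Genes were filtered with filterByExpr, which left 13281 of 48709, and tested by the quasi-likelihood F test of edgeR 4.0.16 (R 4.3.3, robust dispersion estimates, 2-sided) in 1 fit of the 18 libraries with TMM scaling and Benjamini-Hochberg adjustment. Alternatives used DESeq2 1.42.0, limma 3.58.1 voom, other scalings and filters, and fits without libraries. The fits with cardiomyocyte or fibroblast markers as a covariate, and without Isoproterenol and minocycline 4 and 6, were chosen after seeing the data. The fitting script was tested on simulated data, with 50 genes changed at each of 4 sizes in the Isoproterenol libraries. For isoproterenol against Control it recovered 20% of log2 differences of 0.3 and 44% of 0.5. Of differences of 1 and 1.5 it recovered 96% and 98%, with 8 false calls in a run of 13199 genes. Small differences that did not pass may thus have been missed. No number in the labels pairs libraries across groups. Nothing in the labels gives a sequencing batch.

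The members and the gene lists were chosen with earlier results of these data known. The text names all 10 members, Pdhx, Dld, Pdp2 and Pdpr, and from each list up to 4 called genes with the smallest p (2 where none was called). Likeness used Pearson's r of log2-CPM with a prior count of 2, and 3 genes are named for Pdk4 and each called member. Some genes that this rule names are not reported here. Genes that overlap a member on the reference took few counts: Map3k15, antisense to Pdha1, had 0.142% of its count. The pseudogenes Mpc1-ps and Gm6123, which resemble Mpc1 and Pdhb, had 0. Over about 150 bases, Pdhb also resembled expressed genes at 90 to 92% identity. The largest counts among these were those of Strip2 and Rmnd1, with 17.65% and 13.1% of the Pdhb count. Whether reads were shared between them was not tested.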

Additional observations from a re-analysis of the deposited data

Results flagged for a closer look

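In 3 of the 30 gene and group combinations checked, the highest or lowest of 6 libraries lay far from the other 5 for the group's range. Such a check is met by chance in about 1 in 20 groups. Control 2 had 724 CPM of Pdha1, while the other Control libraries had 838 to 887 CPM. The same library had 233 CPM of Dlat, while the others had 254 to 263 CPM. Control 2 also had the highest fibroblast marker sum of its group (882 CPM) and the lowest cardiomyocyte marker sum (63359 CPM), and the part of either in these values was not tested. Control 1 had 172 CPM of Mpc2, while the other Control libraries had 128 to 143 CPM.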

How the results depend on the processing

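The Pdk2 calls against Control held in 29 of 31 alternatives each, and those lost were the covariate fits, chosen after seeing the data. No paired analysis was possible because no number in the labels pairs libraries of different groups.

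Without the 4 libraries above 80 CPM of the atrial gene Myl7 (Control 5 and 6, Isoproterenol 5, Isoproterenol and minocycline 2), 681 genes and 1 member were called for isoproterenol, 1 gene for added minocycline, and 1369 genes and 2 members for both drugs. With the cardiomyocyte markers as a covariate the counts were 869 genes and 0 members for isoproterenol, 69 genes for added minocycline, and 751 genes and 0 members for both drugs. With the fibroblast markers they were 694 genes and 0 members for isoproterenol, 13 genes for added minocycline, and 517 genes and 0 members for both drugs. Without Isoproterenol and minocycline 4 and 6, added minocycline gave 13 genes, and both drugs 1441 genes and 3 members. For added minocycline a fit of only the 12 libraries compared gave 2 genes and DESeq2 gave 37. Without the filter on low counts 1 member was called for isoproterenol. Leaving out each library in turn gave 1079 (without Control 4) to 1877 genes and 1 to 4 members (4 without Control 2, Pdha1 being the call lost without each of 11 libraries) for isoproterenol, 1 to 13 genes for added minocycline (13 without Isoproterenol and minocycline 6), and 1789 to 2930 genes and 4 to 6 members for both drugs. The cause of these differences was not tested, and the fits that left out libraries also held fewer of them.

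Several uncalled or weakened values changed sign. With the cardiomyocyte covariate the log2 differences for isoproterenol were 0.23 (Pdk1), 0.051 (Pdp1), 0.091 (Pdha1), 0.015 (Pdhb), 0.20 (Dlat), 0.049 (Mpc1) and 0.019 (Mpc2). For both drugs they were 0.051 (Pdk1), 0.0058 (Dlat) and 0.086 (Mpc1), and for added minocycline -0.014 (Pdk2) and -0.031 (Pdk4). With the fibroblast covariate they were 0.13 (Pdk1), 0.093 (Dlat), 0.0061 (Mpc1) and 0.014 (Mpc2) for isoproterenol, and 0.063 (Pdk1), 0.0025 (Dlat), 0.077 (Mpc1) and 0.0092 (Mpc2) for both drugs. For added minocycline, leaving out Isoproterenol and minocycline 4 and 6 gave 0.045 (Pdk1), 0.11 (Pdp1), 0.059 (Pdha1), 0.00061 (Pdhb), 0.0073 (Dlat) and 0.0015 (Mpc2). In that comparison limma voom gave 0.033 (Pdp1), the atrial covariate 0.0040 (Mpc2) and the fit without libraries high in Myl7 -0.046 (Pdk4). Leaving out 1 library gave -0.042 to 0.042 for Pdk2, -0.11 to 0.16 for Pdk4 and, for Pdp1, -0.099 to 0.034. With isoproterenol Pdhb passed the test under 7 of 13 alternatives other than leaving out 1 library. Against Control, Mpc2 with both drugs was called in 3 of 31 alternatives. Depth limits Pdk3 most, at 0.997 to 3.46 CPM.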
